A study of Mus musculus with 23 samples.

Results

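Tfrc, Trf, Steap3, Slc11a2, Aco1 and Ireb2 are 6 of the 32285 genes in the deposited gene list, and they were taken by symbol as the genes of transferrin-bound iron uptake and of its control inside the cell. They held 560557 of the 994390502 unique molecular identifiers (UMIs, each a counted RNA molecule) in the cells kept. By gene that was 189453 UMIs for Tfrc, 252847 for Trf, 25885 for Steap3, 17353 for Slc11a2, 34921 for Aco1 and 40098 for Ireb2.

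The study sequenced single cells from brains of mice injected with an antibody labelled with the fluorescent dye AF647, at 45 mg/kg into the tail vein. TfR mu/hu KI mice, which carry human transferrin receptor sequence in the Tfrc gene, received ATV-TfR, an antibody transport vehicle that binds the transferrin receptor. CD98hc mu/hu KI mice, which carry human sequence in the gene of the CD98 heavy chain, received ATV-CD98hc, and C57BL/6J mice received a control IgG. The mice were labelled as 3.3 months old (12 weeks in the series' design text), and their brains, collected 24 hours later, lacked the olfactory bulbs, medulla, pons and cerebellum. All cells were dissociated with Actinomycin D and Anisomycin, inhibitors of transcription and translation. Cells of 1 male and 1 female were pooled, with 2 pools per treatment, and each pool was sorted by fluorescence into negative, low, medium and high bins. The gates divided the positive ATV-TfR cells into 3 equal parts and were then used for all 3 treatments. Treatment and genotype were always the same contrast. Reads from the part of Tfrc replaced by human sequence need not align to the mouse gene, so a lower Tfrc count in ATV-TfR pools cannot be told apart from an effect of the knock-in or of the antibody. The bins of a pool came from the same animals.

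Transferrin, encoded by Trf, carries iron in plasma and brain fluid, and the transferrin receptor Tfrc takes iron-loaded transferrin into the endosome. There STEAP3, a metalloreductase, reduces the iron, and the transporter DMT1, encoded by Slc11a2, can move it into the cytosol. ACO1 (IRP1) and IREB2 (IRP2) are the iron regulatory proteins, which bind stem-loops called iron responsive elements in messenger RNAs: binding in the 3′ UTR of Tfrc protects that RNA from decay, and binding in a 5′ UTR, as in ferritin, blocks translation. Brain endothelial cells are known for their transferrin receptor, by which iron and receptor-binding antibodies cross the blood-brain barrier, and oligodendrocytes are known as a source of transferrin.

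Iron responsive elements are the RNA sequences that Aco1 and Ireb2 bind. UTRs of GRCm38 transcripts were searched on the transcript strand for a C, 5 bases, the loop CAGTGN and 5 bases that pair with the first 5, where G and T (U in the RNA) may pair. A second form allowed 1 unpaired base inside the arm after the loop. The 3′ UTR of Tfrc held 4 matches with all 5 pairs, at chr16:32631219-32631248, chr16:32631598-32631627, chr16:32631663-32631692 and chr16:32631710-32631739 (GRCm38, + strand). The 3′ UTR of Slc11a2 held 1 match with 1 unpaired base, at chr15:100395152-100395181 (- strand). The 5′ UTR of Fth1, the ferritin heavy chain, held a match at chr19:9982732-9982761 (+ strand) and that of Slc40a1, the iron exporter ferroportin, at chr1:45925464-45925493 (- strand). The bulged C and the loop are in capitals.
Tfrc site 1: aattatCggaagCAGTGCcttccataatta
Tfrc site 2: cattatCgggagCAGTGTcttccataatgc
Tfrc site 3: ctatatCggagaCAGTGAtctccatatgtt
Tfrc site 4: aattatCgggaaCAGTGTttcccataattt
Slc11a2: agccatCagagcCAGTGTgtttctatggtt
Fth1: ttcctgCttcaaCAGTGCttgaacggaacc
Slc40a1: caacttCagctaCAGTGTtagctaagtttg

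The 4 Tfrc sites differed in their stems, and the last base of the loop was not the same in all 4. The loop bases CAGTG were required by the search. Of 21028 genes with a 3′ UTR, 129 (0.613%) held a match with all 5 pairs and 357 (1.70%) held either form. Of 20899 genes with a 5′ UTR, 30 (0.144%) held a match with all 5 pairs. The UTRs of Trf, Steap3, Aco1 and Ireb2 held no match, which says only that these letters are not in those UTRs. The members lie apart in GRCm38, with Tfrc at chr16:32608920-32632794, Trf at chr9:103204001-103230444, Steap3 at chr1:120190757-120272705, Slc11a2 at chr15:100387898-100425072, Aco1 at chr4:40143081-40198338 and Ireb2 at chr9:54863789-54912530.

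The 23 libraries held 1861238 to 90307818 UMIs each, and 234024 cells in all were kept (519 to 19341 per library, median depth 2178 to 4873 UMIs per cell). The control IgG negative bin was analysed in pool 2 only. Cells were grouped without the 6 members and named from marker lists into 19 classes with 225359 cells. The largest were 95680 endothelial cells (11 of 12 listed markers were highest in the class) and 91871 astrocytes (10 of 10), beside 11204 microglia (9 of 9), 7047 oligodendrocytes (11 of 11) and 2919 fibroblasts (8 of 8). A set of 8665 cells (3.70%) stayed unnamed. Of the kept cells, 5.75% carried a barcode that another library also held, at most 106 for any pair of libraries. Levels are CPM, a gene's UMIs per 1000000 of the class's summed UMIs, in a library with at least 20 cells of that class. Because cells were summed, a lower level cannot be told apart from fewer cells carrying the RNA.

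Tfrc RNA was highest in endothelial cells. In the 4 pools without the TfR knock-in it averaged 537 ± 67.2 CPM there (SD, n = 4 pools, 461 to 611). The next classes were astrocytes with 55.6 ± 8.24 CPM (SD, n = 3 pools), B cells with 55.3 ± 19.0 and pericytes with 48.3 ± 8.65 (n = 3). Endothelial cells did not overlap the class below them, while each later neighbour overlapped the next down to microglia, the lowest, with 7.92 ± 5.58 CPM. Over all 6 pools the endothelial level of Tfrc was 433 ± 169 CPM (213 to 611).

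Trf followed another order. Oligodendrocytes held 3969 ± 292 CPM of Trf (SD, n = 5 pools), fibroblasts 1352 ± 440 (n = 6), border macrophages 715 ± 106, microglia 652 ± 123 and choroid plexus epithelial cells 539 ± 132. Oligodendrocytes stood apart from fibroblasts and fibroblasts from border macrophages, and the next 3 overlapped. Astrocytes held 8.12 CPM of Trf and endothelial cells 5.22 ± 1.76.

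The reductase Steap3 was highest in fibroblasts, with 118 ± 19.0 CPM (SD, n = 6 pools). Astrocytes with 31.6 ± 2.89 CPM and endothelial cells with 25.2 ± 2.73 followed and overlapped each other. Pericytes stood below them with 17.3 ± 1.92 CPM, and oligodendrocytes held 0.874 CPM of Steap3. Slc11a2 showed no class that stood apart: ependymal cells had 33.4 ± 7.07 CPM, astrocytes 20.9 ± 0.339, oligodendrocytes 20.2 ± 1.14 and endothelial cells 14.2 ± 0.866, and every class overlapped the next. Aco1 was highest in astrocytes with 51.1 ± 1.87 CPM (SD, n = 5 pools), which did not overlap fibroblasts with 32.9 ± 3.81. Ireb2 ranged from 68.7 ± 28.9 CPM in oligodendrocyte precursors and 66.3 ± 10.6 in microglia to 26.6 ± 4.44 in smooth muscle, again with every neighbour overlapping.

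**Figure D1:**
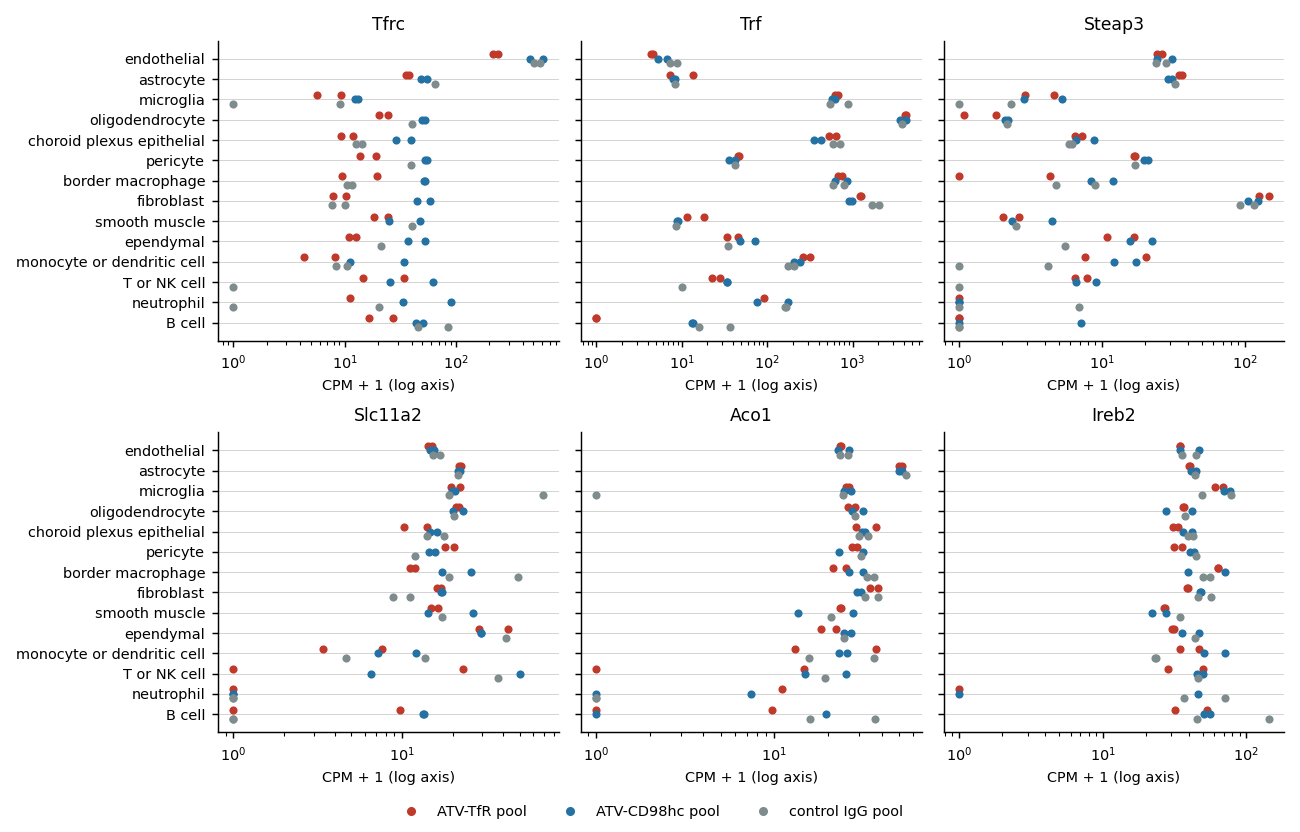
Level of each member in each named class, as CPM + 1 on a log axis. A dot is 1 pool over all its bins, coloured by treatment. Endothelial Tfrc falls into a lower set of dots for the ATV-TfR pools and a higher set for the other pools, and Trf is highest in oligodendrocytes and then fibroblasts.

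Other genes shared these patterns over the 16 classes. By Pearson r of log2(CPM + 1) over those classes, among 15792 genes, the genes most like Tfrc were Dcun1d3 (0.87), Rtp3 (0.85), Gm9917 (0.84), Sox7 (0.83) and Tcf23 (0.83), each highest in endothelial cells. The genes most like Trf were Hmox2 (0.86), Ptgds (0.82), Plpp2 (0.79), Uap1l1 (0.78) and Depdc7 (0.78). For Steap3 they were Heph (0.87), Angptl4 (0.85), Gstt3 (0.85), Rbm46 (0.83) and Prrx2 (0.82), each highest in fibroblasts. Those for Slc11a2 were Ankrd26, Zfp799, Vps50 and Trub1 (0.93 each) and Ipo4 (0.92). Those for Aco1 were Dolk (0.94), Ehhadh (0.93), Cnksr3 (0.93), Gm14325 (0.92) and Pgm3 (0.92). Those for Ireb2 were Phf14 (0.86), Abcb4 (0.85), Ddx31 (0.84), Parp11 (0.83) and Tubgcp4 (0.82). The classes come from the same libraries, so these values describe likeness only.

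Tfrc in endothelial cells rose with fluorescence in both ATV treatments. In ATV-TfR cells it was 54.4 and 39.4 CPM in the negative bin of pools 1 and 2, 33.1 and 50.7 in the low bin, 104 and 129 in the medium bin and 229 and 251 in the high bin. The negative and low bins overlapped, and the medium and high bins stood above them in turn. In ATV-CD98hc cells Tfrc was 165 and 169 CPM in the negative bin, 276 and 289 in the low bin, 595 and 449 in the medium bin and 671 and 496 in the high bin. Here medium and high overlapped, and both stood above low and negative. The negative bins rested on few cells. Cluster 29, described below, made up 47.9 to 52.1% of ATV-TfR negative cells with 57 and 38 cells. It was 57.1 to 61.8% of ATV-CD98hc negative cells with 47 and 32 cells. In ATV-TfR high it held 2041 and 1877 cells, which was 12.4 to 12.5%. Control IgG cells held 520.3 CPM of Tfrc in the negative library, 507 and 616 in the low bin and 353 and 265 in the medium bin, which held 27 and 42 cells.

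The tests followed those orders. By edgeR's quasi-likelihood test with Benjamini-Hochberg adjustment over all genes, Tfrc in ATV-TfR endothelial cells rose by 2.46 on the log2 scale from negative to high (SE 0.28, adjusted p = 6.2e-07), where 9.73% of all genes tested were called. In ATV-CD98hc cells Tfrc rose by 1.98 from negative to high (SE 0.25, adjusted p = 7.4e-06), where 5.42% of genes were called. From negative to medium it rose by 1.80 in ATV-CD98hc cells (SE 0.25, adjusted p = 4.2e-05, 3.86% called). The ATV-TfR step from negative to medium was 1.35 (SE 0.28, adjusted p = 0.0033, 5.33% called), and it did not pass without pool 1 (1.80, adjusted p = 0.069) or without pool 2 (0.99, adjusted p = 0.34). The high-minus-negative difference of Tfrc was 0.48 larger in ATV-TfR by a test of that difference (SE 0.38, adjusted p = 0.92), where 0.0326% of genes were called. With the pool as a block, the step from negative to low in ATV-CD98hc cells was also called (0.87, adjusted p = 0.0022, 2.54% of genes called). Each bin of an ATV treatment here is 2 pools of 2 animals, and every test used a spread estimated over all groups of the class. Except with the pool as a block, the fit treated the bins of a pool as independent, although they share animals.

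**Figure D2:**
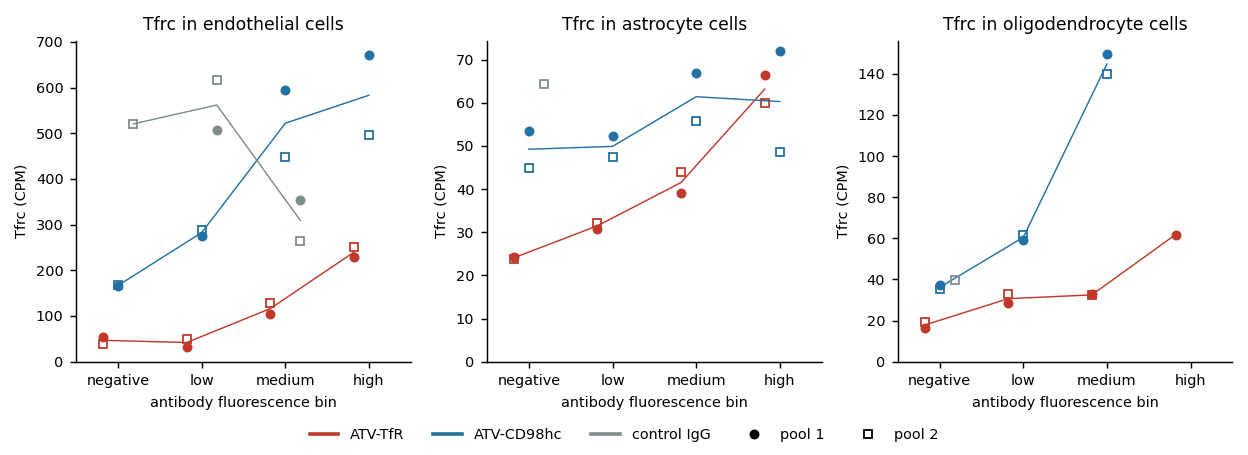
Tfrc level in CPM by fluorescence bin in 3 classes, with an axis from 0. A filled circle is pool 1, an open square pool 2 and a line joins the means, coloured by treatment. In endothelial cells the ATV-TfR pools reach 229 and 251 CPM in the high bin and the ATV-CD98hc pools 671 and 496.

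Within a bin, Tfrc was lower in ATV-TfR endothelial cells than in the other treatments. In the low bin ATV-TfR stood 2.80 below ATV-CD98hc on the log2 scale (-2.80, SE 0.25, adjusted p = 6.6e-07, 2.05% of genes called) and -3.85 from control IgG (SE 0.26, adjusted p = 1.6e-10, 12.3% called). In the medium bin the ATV-TfR difference from ATV-CD98hc was -2.22 (SE 0.21, adjusted p = 2.2e-06, 5.1% called). In the negative bin ATV-TfR differed from control IgG by -3.52 (SE 0.30, adjusted p = 1.5e-07, 5.04% called). In every one of these the pools of the groups did not overlap. The control IgG negative bin is 1 library, which every test against it assumes to vary like the other groups.

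In the high bin Tfrc was 1 of 21 genes called between the ATVs, 0.137% of those tested. The difference was -1.30 (SE 0.20, adjusted p = 0.0076), and it was not called without ATV-TfR pool 1 (-1.19, adjusted p = 0.78) or pool 2 (-1.35, adjusted p = 0.18). In the negative bin Tfrc was 1 of 10 genes called between the ATVs (0.0652%), with -1.77 (SE 0.32, adjusted p = 0.026). That call was lost without ATV-TfR pool 1 (-2.07, adjusted p = 0.59), ATV-TfR pool 2 (-1.63, 0.56) or ATV-CD98hc pool 1 (-1.79, 0.12). Against control IgG in the medium bin ATV-TfR stood at -1.23 (SE 0.26, adjusted p = 0.018, 0.945% called), lost when any of the 4 pools was left out (-1.48 to -1.05).

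ATV-CD98hc endothelial cells also held less Tfrc than control IgG cells in the weakly fluorescent bins. Neither group carries the TfR knock-in, and the cause of this difference was not tested. The difference was -1.75 in the negative bin (SE 0.28, adjusted p = 0.00069, 2.03% of genes called) and -1.05 in the low bin (SE 0.20, adjusted p = 0.00070, 11.8% called). The pools did not overlap in either bin. The cells were another mix: cluster 29, described below, was 37.4 to 42.1% of ATV-CD98hc low and 2.53 to 3.82% of control IgG low cells.

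The bins did not hold the same endothelial cells. Cluster 29, with the arterial markers Gkn3 and Bmx and 6 of 7 arterial markers in all, made up 47.9 to 52.1% of ATV-TfR endothelial cells in the negative bin, 72.1 to 75.8% in the low bin and 12.4 to 12.5% in the high bin. In ATV-CD98hc it fell from 57.1 to 61.8% in the negative bin to 7.65 to 11.6% in the high bin, and it was 17.3% of control IgG negative and 2.53 to 3.82% of control IgG low cells. Cluster 24, with Plvap, Esm1 and 5 of 5 markers of fenestrated endothelium, was 37.0 to 38.7% of ATV-TfR negative cells and no more than 0.0881% of medium and high cells. Its Tfrc was 0 CPM in both ATV-TfR negative libraries (46 and 27 cells) and 9.09 and 11.5 CPM in the ATV-CD98hc low bin (1 and 2 UMIs). It was 69.7 CPM in the 1 control IgG low library with enough cells (28 cells, 8 UMIs).

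Tfrc still differed between bins inside the arterial-marker cluster 29. There it was 17.6 and 37.0 CPM in the ATV-TfR negative bin, 21.3 and 19.3 in low, 49.4 and 71.2 in medium and 96.4 and 101 in high. In ATV-CD98hc it was 95.3 and 47.0 CPM in negative, 119 and 110.0 in low, 227 and 209 in medium and 304 and 275 in high. The negative libraries held few Tfrc UMIs, 4 and 6 in ATV-TfR (57 and 38 cells) and 16 and 5 in ATV-CD98hc (47 and 32 cells). The ATV-TfR low libraries held 15 and 9. Control IgG cells of the cluster held 171 CPM in the negative library and 194 and 262 in the low bin. The ATV-TfR and ATV-CD98hc medium and high libraries each stood above the negative ones of the same treatment, and the ATV-TfR libraries below the ATV-CD98hc ones of the same bin.

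Within cluster 29 Tfrc rose by 2.07 from negative to high in ATV-TfR (SE 0.39, adjusted p = 0.00048, 5.86% of genes called) and by 2.07 in ATV-CD98hc (SE 0.31, adjusted p = 3.1e-05, 4.12% called). The ATV-TfR difference from ATV-CD98hc was -1.54 in the high bin (adjusted p = 9.4e-05), where Tfrc was 1 of 10 genes called (0.0756%). It was -1.88 in the medium bin (adjusted p = 5.1e-07, 2.06% called) and -2.50 in the low bin (adjusted p = 9.6e-06, 0.597% called). Against control IgG in the low bin of the cluster it was -3.45 (adjusted p = 7.0e-08, 1.81% called). In the negative bin ATV-TfR stood at -2.77 from control IgG (adjusted p = 8.4e-05, 1.44% called) and at -1.54 from ATV-CD98hc (adjusted p = 0.89). The ATV-CD98hc difference from control IgG was -1.24 in the negative bin of the cluster (adjusted p = 0.16), so that call of the whole class was lost, and -0.95 in the low bin (adjusted p = 0.045, 0.991% called). The negative-to-medium step of ATV-TfR was 1.30 there (adjusted p = 0.093).

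Clusters 25, 26, 27, 30 and 31 also had the lower Tfrc level under ATV-TfR in the medium and high bins. In cluster 26, with Il1r1, Vwf and Slc38a5, Tfrc was 312 and 338 CPM in ATV-TfR high and 784 and 572 in ATV-CD98hc high, beside 773 in control IgG negative. In cluster 27, with Hmcn1 and Mecom, it was 304 and 354 CPM in ATV-TfR high and 786 and 654 in ATV-CD98hc high. The low libraries of ATV-CD98hc and control IgG overlapped in both, with 531 and 560.3 against 518 and 654 CPM in cluster 26 and 618 and 609 against 612 and 668 in cluster 27. That difference was called in cluster 29 only of the 6 clusters tested (-0.45 to -0.14 in the others, adjusted p = 0.50 to 0.82). All 6 clusters with enough cells gave a lower medium-bin Tfrc in ATV-TfR than in ATV-CD98hc, and each was called (-2.08 to -1.24). In clusters 25, 26, 27, 30 and 31, 0.575, 0.487, 0.892, 1.13 and 0.646% of genes were called there. In the high bin Tfrc was called in 5 of the 6 (-1.54 to -1.13), with cluster 26 as the exception (-1.06, adjusted p = 0.24). In the high bin of clusters 25, 26, 27, 30 and 31, 0.0198, 0.0, 0.0789, 0.0175 and 0.0258% of genes were called.

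**Figure D3:**
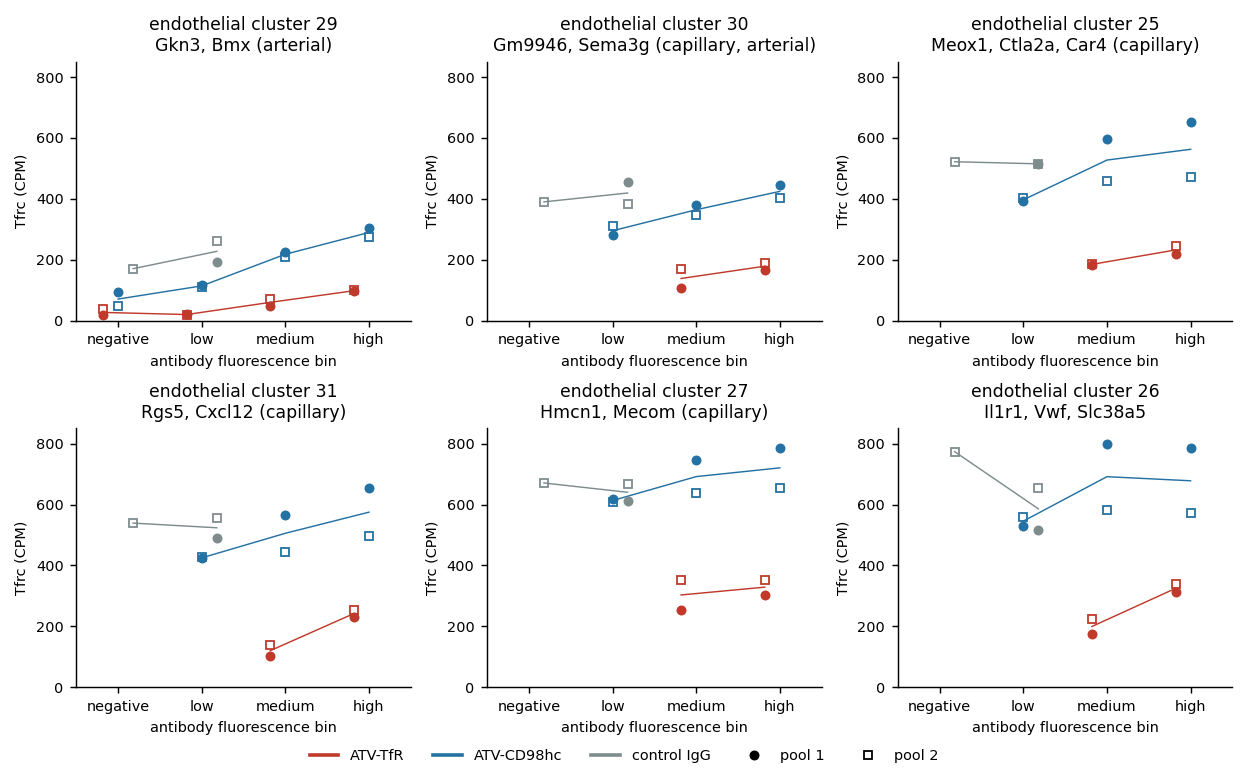
Tfrc level in CPM by fluorescence bin within single endothelial clusters, all on the same axis from 0. Symbols and colours stand for pools and treatments, and a library is drawn where it has at least 20 cells of the cluster. Cluster 29 is the lowest of those drawn and still rises from 17.6 and 37.0 CPM to 96.4 and 101 CPM in ATV-TfR.

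As a share of cells, 81.2 and 71.6% of ATV-CD98hc high endothelial cells had a Tfrc UMI (median depth 3947.5 and 3632 UMIs), against 45.9 and 51.5% of ATV-TfR high cells (3179 and 3607 UMIs). Thinned to 1000 UMIs per cell, the Tfrc shares were 43.1 and 35.6% for ATV-CD98hc high, 19.1 and 20.5% for ATV-TfR high and 33.7% for control IgG negative. In ATV-TfR negative endothelial cells they were 6.96 and 1.41% after thinning (12.6 and 10.96% before). Microglia, taken as a class with little Tfrc, gave 1.50% in ATV-TfR negative pool 1 (median 2932 UMIs) and 2.67% in control IgG negative (3712 UMIs), or 0.544 and 0.815% after thinning. Both ATV-TfR negative shares lay above the microglial ones before thinning, and the thinned share of pool 2 rests on 1 of 71 cells.

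Astrocytes showed a smaller rise of Tfrc in ATV-TfR. It was 24.3 and 23.9 CPM in the negative bin, 30.8 and 32.1 in low, 39.0 and 44.0 in medium and 66.3 and 60.0 in high, so the 4 bins followed each other with no overlap. ATV-CD98hc astrocytes held 53.5 and 44.9 CPM of Tfrc in negative, 52.3 and 47.5 in low, 66.9 and 55.8 in medium and 71.9 and 48.6 in high, and their high and negative bins overlapped (0.26, adjusted p = 0.51, 7.79% of genes called). Control IgG negative astrocytes held 64.3 CPM, above both ATV-TfR and both ATV-CD98hc negative libraries.

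From negative to high Tfrc in ATV-TfR astrocytes rose by 1.52 (SE 0.15, adjusted p = 1.3e-06, 15.9% of genes called), and from negative to medium by 0.84 (SE 0.13, adjusted p = 0.00020, 4.58% called). The medium step was lost without ATV-TfR pool 2 (0.76, adjusted p = 0.10). The high-minus-negative difference was larger in ATV-TfR than in ATV-CD98hc by 1.26 (SE 0.24, adjusted p = 0.0023, 7.51% called), and without ATV-TfR pool 1 it was 1.15 (adjusted p = 0.068). With the pool as a block the difference for the medium bin was called as well (0.49, adjusted p = 0.025, 9.74% called).

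Between treatments Tfrc in negative-bin astrocytes was lower in ATV-TfR than in ATV-CD98hc (-1.05, SE 0.13, adjusted p = 0.00062, 0.807% of genes called) and than in control IgG (-1.43, SE 0.14, adjusted p = 7.8e-05, 0.481% called). The ATV difference narrowed to -0.66 in the low bin (adjusted p = 0.00040, 4.08% called) and -0.54 in the medium bin (adjusted p = 0.0025, 20.4% called). Without ATV-TfR pool 1 those 2 values were -0.61 (adjusted p = 0.058) and -0.45 (adjusted p = 0.099), and within astrocyte cluster 5 the medium value was -0.52 (adjusted p = 0.056). In the high bin it was 0.21 (adjusted p = 0.55, 11.9% called).

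RNA of endothelial cells moved with the bin in astrocytes. The 12 endothelial markers, none of them at 0 there, summed to 10.97 to 13.1 CPM in ATV-TfR negative astrocytes and to 257 to 436 CPM in ATV-TfR high ones. All 12 rose (median 5.15 on the log2 scale). The high sums were 0.798 to 1.33% of the level in endothelial cells, and that percentage of endothelial Tfrc is 2.00 to 3.04 CPM. Among astrocytes with no UMI of Cldn5, Pecam1, Flt1, Ly6c1, Cdh5 and Pglyrp1, below called cells with no endothelial UMI, Tfrc rose by 1.47 (adjusted p = 1.2e-05) and the difference between the ATVs was 1.26 (adjusted p = 0.0078). Within astrocyte cluster 5 alone, Tfrc rose from 27.1 and 29.1 CPM in negative to 89.9 and 75.7 in high (1.67, adjusted p = 3.8e-06, 9.58% of genes called).

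The bins also held different astrocytes. Cluster 11, with Gria1 and Car10, where Tfrc was 21.1 and 24.4 CPM in ATV-CD98hc negative, made up 4.63 to 9.85% of ATV-CD98hc negative and 20.9 to 30.2% of high astrocytes. Cluster 9, with Igsf1 and Agt, went from 12.4 to 12.5% of ATV-CD98hc negative to 28.3 to 42.9% of high astrocytes. Cluster 6, with Hopx and Lhx2, was 6.02 to 7.41% of ATV-TfR negative and 22.7 to 29.1% of high astrocytes, and Tfrc rose within it by 1.53 (adjusted p = 0.00040, 4.26% of genes called). In cluster 9 the ATV-TfR change was 0.81 (adjusted p = 0.19). In clusters 5 and 6 the ATV-CD98hc high libraries had under 20 cells each, so the difference between the ATVs could be tested only in clusters 4, 9 and 11. There it was 1.01 (adjusted p = 0.87), 0.61 (adjusted p = 0.71) and 2.49 (adjusted p = 0.79), called in none of the 3. The value of cluster 11 rests on 1 ATV-TfR high library with 4 Tfrc UMIs (39 cells) and ATV-CD98hc high libraries with 4 and 0.

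Oligodendrocytes held little Tfrc in ATV-TfR, with 16.5 and 19.1 CPM in the negative bin, 28.6 and 32.7 in low, 32.7 and 32.3 in medium and 61.8 in the 21 cells of the 1 high library used. That library also held 340 CPM of Id1 and 61.8 of Slc40a1, against 0.474 to 1.20 and 0.474 to 0.803 in negative. In ATV-TfR high endothelial cells Id1 was 1157 to 1161 and Slc40a1 305 to 311 CPM. Too few of its cells had no endothelial UMI for a fit, so the part of endothelial RNA in that library was not tested. ATV-CD98hc oligodendrocytes held 37.1 and 35.2 CPM in negative, 59.2 and 61.7 in low and 149 and 140.1 in medium, and control IgG negative ones 39.8. The ATV-TfR libraries stood below the ATV-CD98hc ones in all 3 shared bins.

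From negative to medium Tfrc in oligodendrocytes rose by 0.85 in ATV-TfR (SE 0.25, adjusted p = 0.025, 14.9% of genes called) and by 1.92 in ATV-CD98hc (SE 0.18, adjusted p = 1.9e-07, 12.6% called). The ATV-TfR rise was lost without pool 1 (0.71, adjusted p = 0.42) or pool 2 (1.03, adjusted p = 0.16), and in cells with no endothelial UMI (0.72, adjusted p = 0.10). The difference between those changes was -1.07 (SE 0.30, adjusted p = 0.041, 4.91% called), lost without any of the 4 ATV pools (-1.22 to -0.89). Within cluster 14, with Ermn and Mog, Tfrc rose by 0.93 in ATV-TfR (adjusted p = 0.026, 13.1% called) and by 1.58 in ATV-CD98hc (adjusted p = 1.4e-05, 5.82% called), and the difference of -0.65 was not called (adjusted p = 0.39). In cluster 35, described below, the ATV-CD98hc change was 8.79, from 0 UMIs in 1 negative library (49 cells) to 30 in 1 medium library of the other pool (26 cells). The ATV-TfR change there was 2.21, with 2 UMIs in 1 medium library. In the ATV-CD98hc medium libraries the endothelial markers summed to 6128 and 6222 CPM, about 19.2 and 19.1% of the endothelial level, and that percentage of endothelial Tfrc is 114 and 85.6 CPM. Those libraries held 16 and 20 oligodendrocytes with no endothelial UMI, so only the second, with 3 Tfrc UMIs, met the minimum of 20 cells. With that lone library, assumed to vary like the other groups, the ATV-CD98hc change was -0.35 (adjusted p = 0.92) and the difference 1.07 (adjusted p = 0.73). In the negative bin the endothelial marker sums were 4.00 to 18.03 CPM in the ATV libraries and 154 in control IgG. There Tfrc in ATV-TfR stood below control IgG (-1.13, adjusted p = 0.0058, 0.294% of genes called), and it was -0.998 (adjusted p = 0.42) without ATV-TfR pool 1 and -0.98 (adjusted p = 0.34) in cells with no endothelial UMI. Against ATV-CD98hc it was -1.01 (adjusted p = 0.057, 0.00892% of genes called). The fit with the pool as a block called it (-1.02, adjusted p = 0.0018, 0.178% called). Each pool holds 1 treatment, so that block pairs no animals across this contrast and cannot decide it. Within cluster 14 both negative-bin differences were called, -0.98 from ATV-CD98hc (adjusted p = 0.018, 0.0969% called) and -1.04 from control IgG (adjusted p = 0.028, 0.114% called).

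Pericytes, which wrap the capillaries, held 13.6 and 8.17 CPM of Tfrc in ATV-TfR negative and 32.5 and 23.9 in high. In ATV-CD98hc they held 32.9 and 13.5 CPM in negative, 85.1 and 81.2 in medium and 140.3 and 87.5 in high, so medium and high stood above negative. Tfrc rose by 1.76 to medium (adjusted p = 0.00069, 1.96% of genes called) and by 2.02 to high (adjusted p = 0.0022, 1.31% called). Both calls were lost without ATV-CD98hc pool 2 (1.40, adjusted p = 0.21, and 2.04, adjusted p = 0.34). At the endothelial marker sums of those libraries, 7.09 to 11.2% of the endothelial level, the same percentage of endothelial Tfrc is 46.7 to 56.7 CPM.

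Tfrc in choroid plexus epithelial cells, which make cerebrospinal fluid, was 7.30 and 0 CPM in ATV-CD98hc negative, 45.7 and 72.0 in medium and 44.0 and 30.1 in high. It rose by 3.45 to medium (adjusted p = 2.0e-05, 6.26% of genes called), with 2.71 to 9.91 when a pool was left out, since the negative libraries held 7 and 0 Tfrc UMIs. The endothelial marker share of endothelial Tfrc in the medium and high libraries is 32.2 to 84.1 CPM, and in cells with no endothelial UMI the change to medium was 1.51 (adjusted p = 0.29). In fibroblasts of the ATV-CD98hc medium bin Tfrc was 96.5 and 66.7 CPM, where that share gives 101 and 89.6. In the ATV-CD98hc high bin it was 50.2 and 54.6 CPM, where that share gives 52.0 and 61.0. Endothelial RNA moved with each of these Tfrc values, and its part in them was not tested beyond the cells with no endothelial UMI.

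In ATV-TfR choroid plexus epithelial cells Tfrc went from 4.52 and 1.05 CPM in negative to 36.0 and 28.3 in high. That rise was 3.25 (SE 0.50, adjusted p = 3.9e-05, 24.2% of genes called), and 2.95 to 4.59 when a pool was left out. The endothelial marker share of endothelial Tfrc in the high libraries is 42.8 and 15.5 CPM, and too few of their cells had no endothelial UMI for a test. Cluster 40, with Htr2c and Tmem72, was 7.74 to 8.33% of the ATV-TfR negative and 75.8 to 81.0% of the high cells.

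Ependymal cells, which line the ventricles, held 6.18 and 6.79 CPM of Tfrc in ATV-TfR negative and 38.8 and 23.9 in medium, where the endothelial marker share gives only 0.448 and 0.326 CPM. That rise was 2.18 (adjusted p = 0.015, 18.4% of genes called), lost without ATV-TfR pool 1 (1.66, adjusted p = 0.47) or pool 2 (2.56, adjusted p = 0.059) and with DESeq2 (adjusted p = 0.13). In ATV-CD98hc ependymal cells Tfrc was 4.36 and 0 CPM in negative (1 and 0 UMIs), 120.1 and 82.2 in medium and 60.6 in the 1 high library used. Both rises were called (adjusted p = 0.00030 with 5.56% of genes called, and 0.0036 with 12.4% called), the medium one not without ATV-CD98hc pool 1 (adjusted p = 0.059). The high library, of 27 cells, was assumed to vary like the other groups. The endothelial marker share gives 76.4 and 41.1 CPM for the medium libraries and 66.3 for the high one. Microglia held 0 to 23.02 CPM of Tfrc.

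**Figure D4:**
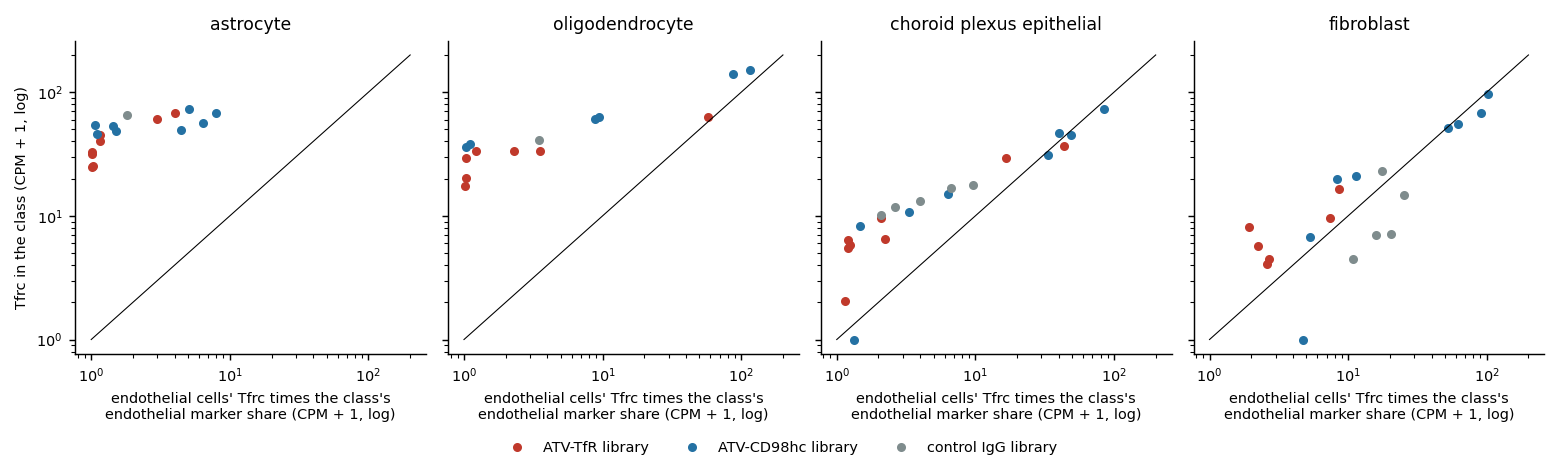
Tfrc level of a class in each library against the endothelial Tfrc level of that library multiplied by the class's endothelial marker share, both as CPM + 1 on log axes, with the line of equal values. Colours stand for treatments. Astrocytes lie far above the line, and the ATV-CD98hc medium and high libraries of fibroblasts and choroid plexus epithelial cells lie near it.

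Trf in oligodendrocytes, where it is most abundant, was lower in the medium bin. ATV-TfR oligodendrocytes held 4366 and 4356 CPM of Trf in the negative bin, 4445 and 4071 in low, 1473 and 1579 in medium (75 and 65 cells) and 1705 in the 1 high library used. ATV-CD98hc ones held 3756 and 4674 CPM in negative, 3094 and 3707 in low and 2107 and 2462 in medium (76 and 62 cells). Control IgG negative oligodendrocytes held 3787 CPM. The medium libraries lay below every negative and low library of both ATVs.

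From negative to medium Trf in ATV-TfR oligodendrocytes fell by 1.54 (SE 0.17, adjusted p = 2.5e-06). The 1 high library, of 21 cells and assumed to vary like the other groups, stood at -1.50 from negative (SE 0.23, adjusted p = 0.00015, 6.85% of genes called). The part of endothelial RNA in that high library was not tested. In ATV-CD98hc Trf fell by 0.97 to medium (SE 0.17, adjusted p = 0.00033). In cells with no endothelial UMI the ATV-TfR medium change was -1.57 and the ATV-CD98hc one, from the same lone library of 20 cells, -0.14 (adjusted p = 0.88). The difference between the ATVs was -0.57 (adjusted p = 0.20). It was called with the pool as a block (-0.58, adjusted p = 0.020, 8.12% of genes called) and, with that lone library, in cells with no endothelial UMI (-1.43, adjusted p = 0.027, 0.139% called). With coarser clusters (Leiden resolution 1) it was called as well (-0.88, adjusted p = 0.047, 2.91% called). It was not called with DESeq2 (-0.55, adjusted p = 0.24), RLE scaling (-0.55, adjusted p = 0.23) or the stricter cell filter (-0.65, adjusted p = 0.16). The other count, cell and doublet filters gave no call either, nor did leaving out any pool (-0.65 to -0.51). The listed oligodendrocyte markers summed to 41786 and 44160 CPM in ATV-TfR negative and to 66289 and 75839 in medium, so the markers moved the opposite way to Trf.

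The oligodendrocytes of the bins were not the same mix. Cluster 35, with Synpr and Slc24a2, held 439 to 1718 CPM of Trf in ATV-TfR and made up 5.96 to 22.3% of ATV-TfR negative and 27.7 to 48.0% of medium oligodendrocytes. Within cluster 14 Trf in ATV-TfR was still 4630.1 and 4439 CPM in negative, 5144 and 4150.2 in low and 1789 and 1695 in medium. It fell there by 1.36 (adjusted p = 4.8e-06, 13.1% of genes called). ATV-CD98hc cells of cluster 14 went from 3804 and 4696 to 2577 and 3207 CPM, a fall of 0.61 (adjusted p = 0.038, 5.82% called). The difference between these falls was -0.75 and was not called (adjusted p = 0.11). In the medium bin of cluster 14 Trf was 0.65 lower on the log2 scale in ATV-TfR than in ATV-CD98hc (-0.65, adjusted p = 0.027, 6.7% called). Cluster 35, with 1 medium library of each ATV, gave the other sign there (0.34, adjusted p = 0.68), at 439 CPM in ATV-TfR and 422 in ATV-CD98hc, each lone library being assumed to vary like the other groups. Trf fell in it by 1.69 in ATV-TfR (adjusted p = 0.013, 3.45% of genes called) and by 2.12 in ATV-CD98hc (adjusted p = 0.0043, 9.09% called). The ATV-CD98hc value sets 1 negative library of pool 1 (1703 CPM, 49 cells) against 1 medium library of pool 2 (26 cells), so pool and bin cannot be told apart in it.

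In fibroblasts of the meninges and vessels the mean Trf level was highest in the positive bins of control IgG, although its high bin overlapped the ATV-TfR low bin. It was 1063 CPM in control IgG negative, 2267 and 1791 in low, 1977 and 1663 in medium and 1334 and 1949 in high. ATV-CD98hc fibroblasts held 865 and 633 CPM in the low bin and ATV-TfR ones 1476 and 1453, with no overlap among the 3 treatments. In the low bin Trf was lower in ATV-CD98hc than in control IgG (-1.43, SE 0.24, adjusted p = 0.00015, 15.9% of genes called). Cluster 28, with Slc6a13 and Aldh1a2, held 749.7 to 1359 CPM of Trf and cluster 42, with Coch, Moxd1 and Dpep1, 1161 to 2538 CPM. Cluster 28 was 88.9 to 92.7% of fibroblasts in the negative libraries of the 3 treatments and 67.8 to 81.6% of ATV-CD98hc low ones, while cluster 42 was 84.0 to 84.9% of control IgG low ones. ATV-TfR low fibroblasts were 19.8 to 27.7% cluster 28 and 55.3 to 63.1% cluster 42. Inside cluster 28 Trf in the low bin was 1275 and 1183 CPM in ATV-TfR (22 and 26 cells) and 751 and 778 in ATV-CD98hc (0.64, adjusted p = 0.14). In the low bin of cluster 42 it was 2538 and 2039 CPM in control IgG, 1949.9 and 2011 in ATV-TfR and 1239 in the 1 ATV-CD98hc library with enough cells. No low-bin test of Trf in these clusters was called, with ATV-CD98hc at -0.88 from control IgG in cluster 42 (adjusted p = 0.49). Cluster 28 had too few control IgG low cells for a level, and cluster 36, with Prg4 and Igfbp6, held 0 to 11.9 CPM of Trf.

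Choroid plexus epithelial cells repeated that contrast. In the low bin Trf was 414 and 274 CPM in ATV-CD98hc and 722 and 608 in control IgG, with no overlap (-0.94, SE 0.22, adjusted p = 0.0028, 12.8% of genes called). It was -0.81 (adjusted p = 0.077) without control IgG pool 1. Cluster 16, with Cox8b and Calml4, was 22.1 to 23.3% of these ATV-CD98hc cells and 0% of the control IgG ones, and cluster 40 was 1.99 to 4.74% against 13.9 to 29.1%. Within cluster 15, the most frequent in both, the difference was -0.77 (adjusted p = 0.012, 2.99% of genes called). Microglia held 493 to 875 CPM of Trf, endothelial cells 0 to 29.1 and astrocytes 2.52 to 17.2. With the pool as a block Trf in astrocytes fell in ATV-TfR from negative to high (-1.37, adjusted p = 0.015, 19.7% of genes called) and in ATV-CD98hc from negative to medium (-1.18, adjusted p = 0.0077, 19.6% called). Without the block neither change was called. Trf is low in astrocytes, and the part of RNA from oligodendrocytes, the class richest in Trf, was not tested.

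Steap3 in fibroblasts was highest in the negative bin. ATV-TfR fibroblasts held 215 and 265 CPM of Steap3 in negative, 72.7 and 79.2 in low and 69.1 and 95.7 in medium. ATV-CD98hc ones held 261 and 151 CPM in negative, 148 and 133 in low, 97.6 and 93.7 in medium and 100.5 and 72.7 in high. Control IgG fibroblasts held 179.9 CPM in negative, 84.3 and 94.3 in low, 87.4 and 125 in medium and 126 and 125 in high. In each treatment every positive library lay below the negative ones.

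From negative to low Steap3 in ATV-TfR fibroblasts fell by 1.70 (SE 0.25, adjusted p = 3.8e-05, 12.9% of genes called) and to medium by 1.57 (SE 0.26, adjusted p = 0.00014, 13.5% called). In ATV-CD98hc it fell by 1.15 to medium (SE 0.28, adjusted p = 0.022, 3.39% called) and by 1.28 to high (SE 0.29, adjusted p = 0.0078, 6.15% called). Without ATV-CD98hc pool 1 these were -0.75 (adjusted p = 0.57) and -1.08 (adjusted p = 0.31). In control IgG the fall to low was -0.95 (adjusted p = 0.041, 11.2% called), and it was lost without control IgG pool 1 (-0.89, adjusted p = 0.14).

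Inside cluster 28 the ATV-TfR fall remained in size. Steap3 was 229 and 283 CPM in ATV-TfR negative and 75.0 and 93.1 in low (-1.63, SE 0.30, adjusted p = 0.00012, 14.9% of genes called). Those low libraries were small, with 22 and 26 cells and 12 and 20 Steap3 UMIs. ATV-CD98hc cells of the cluster held 294 and 179.8 CPM in negative, 174 and 175 in low and 176 and 137 in medium, with a change to medium of -0.69 (adjusted p = 0.33). In the low bin of cluster 28 Steap3 was lower in ATV-TfR than in ATV-CD98hc (-1.08, adjusted p = 0.038, 4.99% called). Cluster 42 held 64.3 to 142 CPM of Steap3 in all treatments.

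**Figure D5:**
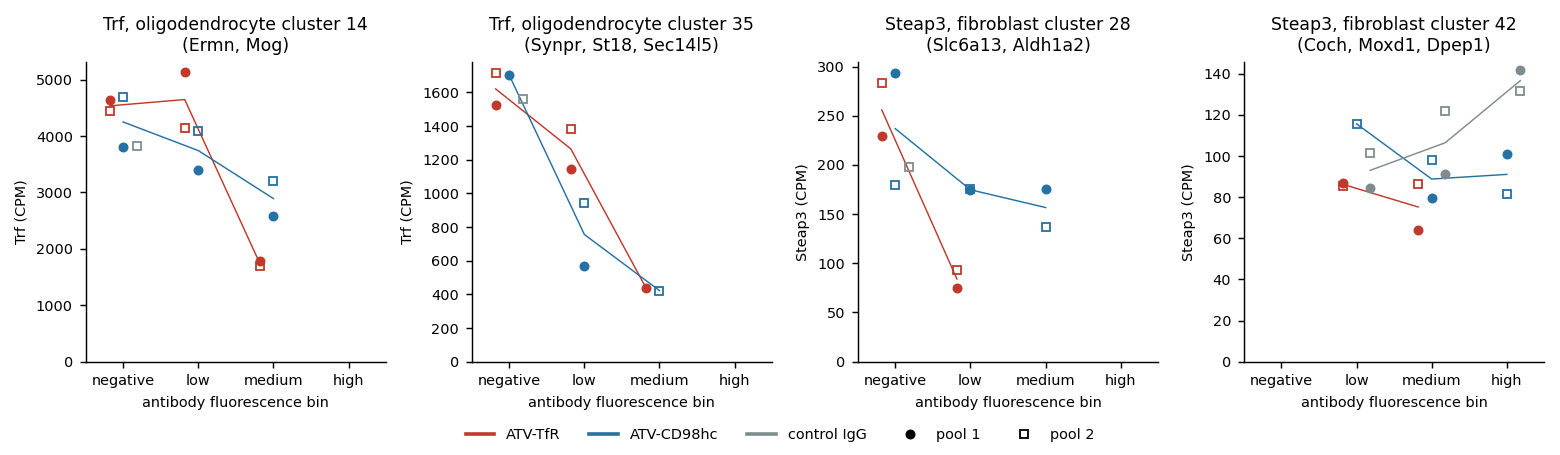
Trf in oligodendrocyte clusters and Steap3 in fibroblast clusters, in CPM by fluorescence bin on axes from 0. Symbols stand for pools and colours for treatments, and a library is drawn where it has at least 20 cells of the cluster. In oligodendrocyte cluster 14 Trf of ATV-TfR goes from 4630.1 and 4439 to 1789 and 1695 CPM, and in fibroblast cluster 28 Steap3 goes from 229 and 283 to 75.0 and 93.1 CPM.

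Endothelial Steap3 was low, and over the whole class it was higher in the high than in the negative bin of both ATVs. ATV-TfR cells held 11.6 and 10.7 CPM in negative, 9.93 and 6.33 in low, 18.4 and 13.5 in medium and 26.5 and 24.3 in high. ATV-CD98hc cells held 3.66 and 17.5 CPM in negative and 28.5 and 34.2 in high, with a rise of 1.98 (SE 0.56, adjusted p = 0.038) that was lost without ATV-CD98hc pool 1 (1.16, adjusted p = 0.57) or pool 2 (3.04, adjusted p = 0.064). The ATV-TfR change of 1.32 (adjusted p = 0.056) was called with the pool as a block (1.34, adjusted p = 0.018, 13.3% of genes called). In the low bin Steap3 was lower in ATV-TfR than in control IgG (-1.64, SE 0.37, adjusted p = 0.0032), lost without ATV-TfR pool 1 (-2.04, adjusted p = 0.067) or pool 2 (-1.44, adjusted p = 0.13). Clusters 25, 26 and 27 held 7.68 to 43.01 CPM of Steap3. Cluster 29, which is 72.1 to 75.8% of ATV-TfR low and 2.53 to 3.82% of control IgG low cells, held 0 to 29.1 CPM. Inside cluster 29 Steap3 was 4.40 and 18.5 CPM in ATV-TfR negative and 16.9 and 16.3 in high, which overlap (0.82, adjusted p = 0.61). In ATV-CD98hc it was 0 and 9.41 CPM there in negative (0 and 1 UMIs) and 23.5 and 27.4 in high (adjusted p = 0.13). The low libraries of the cluster overlapped too, with 9.94 and 4.30 CPM in ATV-TfR and 7.46 and 29.1 in control IgG (-1.44, adjusted p = 0.44). Astrocytes held 26.97 to 48.6 CPM of Steap3 over all libraries.

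Slc11a2 and Aco1 were each called in 1 comparison and Ireb2 in none. Slc11a2 in ATV-TfR oligodendrocytes was 17.8 and 19.1 CPM in negative, 23.4 and 24.5 in low, 38.9 and 29.1 in medium and 30.9 in the 1 high library used. The medium libraries lay above the negative and low ones, and the rise was 0.86 (SE 0.26, adjusted p = 0.030), lost without ATV-TfR pool 1 (0.55, adjusted p = 0.61) or pool 2 (1.18, adjusted p = 0.10). ATV-CD98hc oligodendrocytes held 18.7 and 20.0 CPM of Slc11a2 in negative and 16.9 and 27.03 in medium, which overlap. Its level was 15.2 to 22.4 CPM in astrocytes and 0 to 21.4 in endothelial cells.

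Aco1 in ATV-TfR astrocytes was 49.5 and 47.5 CPM in negative, 48.9 and 50.7 in low, 49.4 and 52.2 in medium and 58.5 and 59.5 in high. Only the high libraries stood apart, and the rise was 0.41 (SE 0.12, adjusted p = 0.023), lost without ATV-TfR pool 1 (0.41, adjusted p = 0.36) or pool 2 (0.40, adjusted p = 0.31). In cluster 5 it was 0.29 (adjusted p = 0.53). ATV-CD98hc astrocytes held 42.2 to 54.3 CPM of Aco1 over all bins and control IgG negative ones 54.1. Ireb2 in microglia was 69.5 and 62.4 CPM in ATV-TfR negative, 57.8 and 58.4 in low and 44.3 and 27.3 in medium, and 78.3 in control IgG negative. Of 163 comparisons of Ireb2 none was called by edgeR or DESeq2, and 5 had an unadjusted p under 0.05.

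Over the whole set of classes the calls were unequal among members. Tfrc was called in 48 of 158 comparisons, Steap3 in 8 of 95, Trf in 7 of 164, Aco1 in 1 of 158 and Slc11a2 in 1 of 143. Between a positive and the negative bin, 31 of 343 member comparisons were called (9.04%, against 6.62% of all genes in the same comparisons). Tfrc was called in 19 of 62 of these, all rises. Steap3 was called in 6 of 37, Trf in 4 of 63, Aco1 in 1 of 62, Slc11a2 in 1 of 56 and Ireb2 in 0 of 63. Between treatments within a bin, 32 of 428 were called (7.48% against 3.51%). Tfrc was called in 27 of 76 of these (21 lower and 6 higher), Trf in 3 of 81, Steap3 in 2 of 45 and the other members in 0. The 6 higher Tfrc calls were all against control IgG. High-bin choroid plexus epithelial cells gave 1 for each ATV (1.86 to 2.41 in ATV-TfR and 1.89 to 2.42 in ATV-CD98hc with a pool left out). The others were ATV-CD98hc in medium-bin choroid plexus epithelial cells, border macrophages and fibroblasts and in high-bin fibroblasts. The part of endothelial RNA in these calls was not tested. The member shares above those of all genes thus rest mainly on Tfrc. Of differences between the ATVs, 2 of 110 were called (1.82% against 1.69%), both for Tfrc. The comparisons share libraries, so these are counts and not independent results. With the pool as a block, the calls between bins numbered 50 (14.7% of member comparisons, against 8.41% of all genes) and those of differences between the ATVs 5 in place of 2 (4.55% against 2.8% of all genes).

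Genes around the members were read from 4 lists with 41 genes of uptake, mitochondrial carriers, iron regulatory protein targets and export. In ATV-TfR endothelial cells, 4 of 33 tested rose and 4 fell from negative to high (24.2%, against 9.73% of all genes; median -0.08 against 0.09). Slc40a1, the iron exporter with the 5′ element printed above, rose by 2.18, from 50.1 to 93.2 CPM in negative to 305 to 311 in high. Slc39a8, a carrier of zinc, manganese and iron, rose by 2.21 and Ncoa4, the ferritin receptor of autophagy, by 1.37, and Snx3, an endosomal sorting nexin, rose by 0.82. Bmp6, the endothelial signal that drives hepcidin in liver, went from 118 to 129 CPM to 0.404 to 0.573 CPM (-7.80), and Smad6, a BMP inhibitor, fell by 2.06. The metal carrier Slc39a14 stood at -4.90, from 13.6 to 14.3 CPM in negative to 0.341 to 0.485 in high, and Cp, the ferroxidase ceruloplasmin, at -1.30. In ATV-CD98hc 2 of 33 rose and 4 fell (18.2% against 5.42%), with Slc40a1 at 1.65, Slc39a8 at 1.88, Bmp6 at -3.76, Smad6 at -1.67, Cp at -1.07 and Slc25a37, which brings iron into mitochondria, at -2.22. The Slc25a37 level was 5.82 and 65.9 CPM in the ATV-CD98hc negative libraries and 6.24 and 9.596 in the high ones, so 1 negative library lay above both high ones and the other below. Control IgG negative cells, in 1 library, held 326 CPM of Slc40a1, 123 of Slc39a8, 87.0 of Ncoa4 and 577 of Snx3. They held 4.49 CPM of Bmp6, 43.4 of Smad6, 0.876 of Slc39a14 and 170 of Cp. All but Snx3 lay closer there to the ATV-TfR high than to the ATV-TfR negative level. In the low bin 6 of 33 listed genes were higher in ATV-TfR than in control IgG and 3 lower (27.3% against 12.3% of all genes). Among these, Bmp6 was higher (3.78) and Slc40a1 lower (-2.68).

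Inside cluster 29 Slc40a1 rose by 2.00 in ATV-TfR (adjusted p = 3.0e-06) and by 1.90 in ATV-CD98hc (adjusted p = 2.0e-05). Bmp6 fell by 6.97 there in ATV-TfR (adjusted p = 3.3e-09), and its ATV-CD98hc change was -2.08 (adjusted p = 0.71). Of the other genes named for ATV-TfR, Slc39a8, Ncoa4, Snx3, Smad6 and Cp were called in cluster 29 in the same direction, and Slc39a14 was not (-2.64, adjusted p = 0.10). Of those named for ATV-CD98hc, Slc39a8 and Smad6 were called there, and Cp (-0.56, adjusted p = 0.20) and Slc25a37 (-1.41, adjusted p = 0.50) were not. In ATV-TfR astrocytes 8 of 34 rose and 1 fell from negative to high (26.5% against 15.9%), led by Cybrd1, a ferric reductase, with 1.81 and Slc40a1 with 1.55. Among the others, Id1 (1.23), Bmp6 (1.16), Epas1 (0.66), Pcbp2 (0.49) and Lrp1 (0.34) rose, and Smad7 (-0.64) fell. The endothelial markers of these astrocytes rose from sums of 10.97 to 13.1 to 257 to 436 CPM, and cluster 6 from 6.02 to 7.41% to 22.7 to 29.1% of cells. In astrocytes with no endothelial UMI, where 9.51% of genes were called, Cybrd1 (1.82), Id1 (0.99), Epas1 (0.62), Pcbp2 (0.51) and Smad7 (-0.82) were called, and Bmp6 (1.15, adjusted p = 0.054), Slc40a1 (0.88, adjusted p = 0.31) and Lrp1 (0.33, adjusted p = 0.052) were not. Within cluster 5, Id1 (1.62), Bmp6 (2.05), Epas1 (1.03) and Pcbp2 (0.77) were called, and Cybrd1 (2.14, adjusted p = 0.18), Slc40a1 (1.74, adjusted p = 0.16), Lrp1 (0.40, adjusted p = 0.067) and Smad7 (-0.54, adjusted p = 0.53) were not. Within cluster 9, Id1 (1.33, adjusted p = 0.047) and Lrp1 (0.55, adjusted p = 0.026) were called (1.92% of genes called), and Slc40a1 (2.94), Cybrd1 (0.62), Epas1 (0.54), Pcbp2 (0.47) and Smad7 (-0.09) were not (adjusted p = 0.12 to 0.96). Within cluster 11, with 1 ATV-TfR high library of 39 cells, none of the 7 genes tested was (adjusted p = 0.69 to 0.99), with Id1 at 2.19, Slc40a1 at 1.19, Lrp1 at 0.13, Epas1 at 0.0094, Pcbp2 at -0.14, Smad7 at -1.48 and Cybrd1 at -3.62 (SE 8.73). In ATV-TfR oligodendrocytes 3 of 28 rose and 1 fell from negative to medium (14.3% against 14.9%), a share no higher than that of all genes. Among them were Id1 (4.23), Epas1 (0.80) and Fth1 (-1.16). Id1 went from 0.474 to 1.20 CPM in negative to 16.1 to 20.2 CPM in medium. The endothelial marker sums of these oligodendrocytes went from 5.82 to 18.03 CPM to 389 to 610.2 CPM, beside the shift of cluster 35 given above. In cells with no endothelial UMI, where 12.9% of genes were called, Fth1 was called (-1.14), and Id1 (0.12, adjusted p = 0.98) and Epas1 (0.19, adjusted p = 0.69) were not. Within cluster 14 Fth1 was called (-0.97), and Id1 (2.69, adjusted p = 0.12) and Epas1 (0.55, adjusted p = 0.24) were not. Within cluster 35, with 1 medium library, Id1 (4.36) and Epas1 (2.84) were called and Fth1 (-0.85, adjusted p = 0.30) was not. In ATV-TfR fibroblasts 7 of 33 rose and 1 fell from negative to low (24.2% against 12.9%), among them the reductases Steap4 (3.18) and Steap2 (1.77), opposite to Steap3, and Heph (2.91), a ferroxidase. The BMP response genes Id1 (2.53), Smad6 (1.86) and Smad7 (1.70) and the iron-responsive factor Epas1 (1.64) also rose there, and Bmp6 (-3.28) fell. Cluster 28 was 91.3 to 92.7% of the negative and 19.8 to 27.7% of the low fibroblasts compared here. Inside cluster 28 these genes other than Steap2, which was not tested there, were called in the same direction, with Heph at 3.40, Epas1 at 1.78, Id1 at 1.33 and Bmp6 at -2.61. The low libraries of that cluster held 22 and 26 cells.

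Cells were also split by sex from sex-linked genes within each pool. Tfrc in choroid plexus epithelial cells was higher in females by 0.59 (SE 0.14, adjusted p = 0.0040) in 6 of 6 pools, and Steap3 by 0.69 (SE 0.26, adjusted p = 0.042). In that class 34.5% of all genes were called, and 63.1% of female against 31.1% of male cells lay in cluster 40, so the sexes were not the same mix of cells. In the other classes tested, where 0.0485 to 0.125% of genes were called, the lowest adjusted p of a member was 0.093, for Aco1 in astrocytes (-0.21).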

How the data were processed

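Single cells of 23 libraries (3 treatments, 4 fluorescence bins, 2 pools per treatment, 1 library not analysed here) were measured as UMI counts per gene and barcode. The authors deposited 1 matrix of raw counts made with Cell Ranger 7.1.0, per the file headers, and the builds mm10 and GRCm38 are named in the submitters' processing notes. The deposited text tables (gene names, barcodes and library labels) hold no measurement. How cells were called, the annotation release and the library chemistry are not stated in the sources used.

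Of 265025 barcodes, 249715 passed (minimum 500 genes and 800 UMIs, maximum 10% mitochondrial counts), and 15691 were removed as doublets by Scrublet (0.690 to 12.2% per library, with a percentile of 94 as the limit in 8 libraries where its own threshold marked under 0.5% or over 25%). Cells were clustered with scanpy 1.11.5 (2000 variable genes, 50 components, 15 neighbours, Leiden at resolution 2, sub-clusters at 0.5) without the 6 members, the 41 listed pathway genes and sex-linked, mitochondrial and ribosomal genes, then named from 25 marker lists. Counts were summed per class and library with at least 20 cells and fitted with edgeR 4.0.16 in R 4.3.3 (TMM, filterByExpr, quasi-likelihood test, all groups of a class in 1 fit, Benjamini-Hochberg over all genes, called under 0.05). DESeq2 1.42.0 was an alternative. A log2 change is edgeR's. CPM divides a gene's UMIs by the class's total in that library and is not corrected for gene length, so genes were not compared with each other. Shares of cells were recomputed after thinning to 1000 UMIs. Scripts were tested on simulated data.

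The members, lists and tests were chosen with earlier results of these data known. Named are the 6 members, the called genes of the 4 lists (at most 10 per comparison, 1 of them not reported here) and the 5 genes most like each member. Alternatives were other scaling, count, cell and doublet filters, coarser clusters, DESeq2, each pool left out, cells with no endothelial UMI and a pool block; single clusters were added after seeing the data. Bins of a pool share its 2 animals, per the labels, so the pool pairs bins (deviations correlated with r of 0.0694 to 0.964 in endothelial cells, -0.262 to 0.746 in astrocytes and 0.00516 to 0.461 in oligodendrocytes). Replicate numbers do not pair animals of different treatments.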

Additional observations from a re-analysis of the deposited data

Results flagged for a closer look

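The change of Tfrc in astrocytes from the negative to the high bin differed between the ATVs by 1.26 on the log2 scale, by edgeR's test of that difference (adjusted p = 0.0023). ATV-TfR astrocytes went from 24.3 and 23.9 to 66.3 and 60.0 CPM and ATV-CD98hc ones from 53.5 and 44.9 to 71.9 and 48.6 CPM. It was 1.15 (adjusted p = 0.068) without ATV-TfR pool 1. The ATV-CD98hc high astrocytes were another mix of clusters than the negative ones: cluster 11 went from 4.63 to 9.85% to 20.9 to 30.2% and cluster 9 from 12.4 to 12.5% to 28.3 to 42.9%. Within clusters 4 and 9 the difference was 1.01 and 0.61, and within cluster 11, where ATV-TfR high was 1 library with 4 Tfrc UMIs, it was 2.49. None was called (adjusted p = 0.71 to 0.87).

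The change of Tfrc in oligodendrocytes from the negative to the medium bin differed between the ATVs by -1.07 (adjusted p = 0.041). ATV-TfR oligodendrocytes went from 16.5 and 19.1 to 32.7 and 32.3 CPM and ATV-CD98hc ones from 37.1 and 35.2 to 149 and 140.1 CPM, in libraries whose endothelial marker sum was 6128 and 6222 CPM. The difference was 1.07 (adjusted p = 0.73) in cells with no endothelial UMI, where ATV-CD98hc medium was 1 library of 20 cells, and -0.65 (adjusted p = 0.39) within cluster 14. It was not called when any of the 4 ATV pools was left out (-1.22 to -0.89).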

How the results depend on the processing

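Of 65 called results, 18 kept their direction and their call under every alternative counted, among them the high-bin rise of endothelial Tfrc in both ATVs, the high-bin rise of astrocyte Tfrc in ATV-TfR, the medium-bin fall of oligodendrocyte Trf in ATV-TfR and the low-bin fall of fibroblast Steap3 in ATV-TfR. The single clusters counted were endothelial cluster 29, astrocyte cluster 5, oligodendrocyte cluster 14 and fibroblast cluster 28. In astrocyte cluster 9, which was not counted, the astrocyte Tfrc rise was not called. DESeq2 kept 53 of 62 results, coarser clusters 59 of 63, the stricter cell filter 54 of 62 and RLE scaling 63 of 65. Leaving out ATV-TfR pool 1 kept 37 of 63 and pool 2 kept 46 of 65. With the pool as a replicate block 64 of 65 were kept, and the call of Steap3 between the ATVs in low-bin fibroblasts was lost (-0.90, adjusted p = 0.053). Calls between bins rose from 31 to 50 (of all genes, from 6.62 to 8.41%). Those of differences between the ATVs rose from 2 to 5 (from 1.69 to 2.8%). Each pool holds 1 treatment, so for contrasts between treatments that block pairs no animals, and a call kept there adds no weight.

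Cells with no endothelial UMI kept 31 of 53 results and gave 12 calls between bins in place of 31. Tfrc in oligodendrocytes then turned, to -0.35 for ATV-CD98hc medium, 0.0296 between the ATVs in the medium bin and 1.07 for the difference between them, and Trf for ATV-CD98hc medium went to -0.14, all resting on 1 ATV-CD98hc medium library of 20 cells. The difference in astrocyte Tfrc ranged from 1.11 to 1.47 with a pool left out. Calls between treatments numbered 32, with 50 without a count filter, 51 with doublets kept and 18 to 40 with a pool left out. Calls of differences numbered 1 with DESeq2, a minimum of 50 UMIs, the stricter cell filter or doublets kept, and 0 to 2 with a pool left out. Sex calls numbered 1 where a sex call needed 2 UMIs and 1 to 2 with a pool left out. The number of member tests and the share of all genes called are not set beside these counts. A change in the members therefore cannot be told apart from one in all genes. In cells with no endothelial UMI, calls of all genes fell from 15.9 to 9.51% for ATV-TfR high astrocytes. For ATV-TfR medium oligodendrocytes they fell from 14.9 to 12.9%. The cause of these changes was not tested.

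Levels moved with the bins used. Endothelial Tfrc of 537 CPM was 285 in the negative bin alone and 419 with equal weights. Oligodendrocyte Trf of 3969 CPM was 1705 in the high bin and 3344 with equal weights. Fibroblast Steap3 of 118 CPM was 214 in the negative bin and 137 in cells with no endothelial UMI. Ependymal Slc11a2 was 41.9 CPM, astrocyte Aco1 54.8 and microglial Ireb2 49.6 in the high bin alone. The filter on low counts left Steap3 in 95 and Slc11a2 in 143 comparisons, against 164 for Trf.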

Other observations

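Iron genes outside the comparisons above moved in ATV-CD98hc as well. In ATV-CD98hc astrocytes 3 of the listed genes rose from the negative to the high bin and 2 fell (14.7% of those tested, against 7.79% of all genes). The ferritin genes Ftl1 and Fth1 fell by 0.97 and 0.72 on the log2 scale, and Slc39a8 (1.63), the ferroxidase Heph (0.74) and the heme-uptake receptor Lrp1 (0.39) rose. The endothelial marker sums of these astrocytes went from 10.5 to 14.9 CPM to 203 to 232 CPM, cluster 11 from 4.63 to 9.85% to 20.9 to 30.2% of cells and cluster 9 from 12.4 to 12.5% to 28.3 to 42.9%. In cells with no endothelial UMI, where 5.03% of genes were called, Ftl1 (-1.07), Fth1 (-0.70), Heph (0.88) and Lrp1 (0.41) were called, and Slc39a8 (0.90, adjusted p = 0.57) was not. Within cluster 11 Fth1 was called (-1.74, adjusted p = 0.0015, 0.588% of genes called) and the other 4 genes were not (adjusted p = 0.47 to 0.92): Heph (-0.80) and Lrp1 (-0.096) had the opposite sign there, Ftl1 was at -0.44 and Slc39a8 at 2.49. Within cluster 9 none of the 5 was called (adjusted p = 0.061 to 1.0), with Ftl1 at -0.51, Fth1 at -0.44, Heph at 0.22, Lrp1 at 0.094 and Slc39a8 at 0.0056. In ATV-CD98hc oligodendrocytes of the medium bin 5 rose and 1 fell (21.4% against 12.6%). Those that rose were Slc39a8 (9.36), Slc40a1 (7.75), Id1 (6.86), Cp (3.10) and Epas1 (2.75), in the libraries whose endothelial marker sum was 6128 and 6222 CPM, and Fth1 fell by 0.97. The largest values started at the floor: in the negative libraries Slc39a8 was 0 CPM in both and Slc40a1 was 0 to 0.438 CPM. In cells with no endothelial UMI, with 1 medium library of 20 cells, Id1 (3.21), Epas1 (0.26) and Fth1 (-0.33) were not called. Cp was not called either and had the opposite sign there (-6.10, SE 9.16). Slc39a8 and Slc40a1 were not tested in those cells. Within cluster 14 Slc39a8 (8.17), Slc40a1 (7.31), Id1 (5.61), Epas1 (1.74) and Fth1 (-0.60) were called (5.82% of genes called), and Cp (1.97, adjusted p = 0.17) was not. Cells of that cluster with endothelial UMIs were kept in this fit. Cluster 35, with 1 medium library, gave Cp at 6.70, Id1 at 4.74, Slc40a1 at 4.54, Epas1 at 2.87 and Fth1 at -0.33. In low-bin fibroblasts 2 of the listed genes were higher and 10 lower in ATV-CD98hc than in control IgG (36.4% against 15.9%), with the mix of fibroblast clusters that the report gives for those bins.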
